A study of Homo with 2 samples.

Results

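The cells described here are amnion-like cells of human blastoids that carried abundant VTCN1 transcript and few transcripts of the proliferation genes MKI67 and TOP2A. They were chosen by measured values. A barcode was a member if it had at least 1000 genes, 1 to 20% mitochondrial UMIs (unique molecular identifiers, which count captured transcripts) and at least 10000 UMIs, with VTCN1 at 300 CPM or more (UMIs of a gene per 1000000 UMIs of the cell), at most 60 for MKI67 and TOP2A together, under 200 for POU5F1, and under 700 for the trophoblast genes GATA2, GATA3, PPARG and PEG10 together. By this rule 369 of 4589 barcodes were members, 162 of 1988 in library 1 and 207 of 2601 in library 2. Among the 1747 barcodes that met the limits on genes, UMIs and mitochondrial share, members made up 21.1% in library 1 (exact 95% interval 18.3 to 24.2) and 21.1% in library 2 (18.6 to 23.8). The 2 libraries thus held the same share within counting error.

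Blastoids are aggregates of pluripotent stem cells that imitate the blastocyst. Both libraries came from day 4 blastoids of the human embryonic stem cell line KhES1, an established line. Aggregation took 24 h in microwells with 10 µM of the ROCK inhibitor Y27632 and was followed by 4 days in a hydrogel under DMEM with 10% FBS. There was 1 group and no control, and the labels do not say whether the libraries came from separate cultures. The tests took out the general gap between the libraries. The p-values therefore measure only how evenly differences between groups of cells repeated in these libraries, a spread that may be technical.

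The amnion is the thin epithelial membrane that encloses the embryo in fluid, and in human models it arises from the epiblast under BMP signalling. VTCN1 encodes a B7 family ligand that restrains T cells, and GABRP encodes the pi subunit of the GABA-A receptor, a chloride channel. Both transcripts are used as markers of amnion-like cells, although VTCN1 is also found in trophoblast. In RefSeq's annotation of GRCh38, VTCN1 spans chr1:117143587-117210927 and GABRP spans chr5:170782720-170814047.

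The members were set against groups of barcodes under the same limits on genes, UMIs and mitochondrial share. VTCN1-low resting cells held VTCN1 under 150 CPM (75 in each library), and VTCN1-middle resting cells lay between both VTCN1 limits (88 and 108). VTCN1-high cycling cells were past the MKI67 and TOP2A limit (65 and 113), GATA-high resting cells were past the limit on the 4 trophoblast genes (44 and 38), and POU5F1-high cells were past the POU5F1 limit (42 and 73). The last 2 groups had no VTCN1 limit, and POU5F1-high cells none on the cycling or trophoblast genes. The median depth of a member was 34207 UMIs in library 1 and 31325 in library 2, against 34649 and 31171 in VTCN1-low cells. Median mitochondrial shares were 6.84% and 6.57% in members and 6.37% and 6.63% in VTCN1-low cells. Depth and mitochondrial share were thus close between those groups, whereas the cycling (40071 and 38233 UMIs), GATA-high (46203 and 42528) and POU5F1-high cells (53848 and 51995) were deeper. Below, a level is the CPM of a group's summed UMIs, given for library 1 and then library 2.

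VTCN1 in single members ranged from 300 to 1557 CPM in library 1 (median 517) and from 301 to 1695 in library 2 (median 476). The lower limit cut through a continuous range, as 22 and 44 members lay within 50 CPM above it and 39 and 44 cells within 50 below it. Summed VTCN1 was 537 and 527 in members, 232 and 231 in VTCN1-middle, 78.8 and 79.7 in VTCN1-low, 453 and 433 in VTCN1-high cycling, 264 and 241 in GATA-high and 14.8 and 18.2 in POU5F1-high cells. VTCN1 was therefore low but not at background in the VTCN1-low cells. Once each cell was thinned to 10000 UMIs, 48.0% and 50.7% of VTCN1-low cells kept a VTCN1 UMI (86.7% and 80.0% unthinned), against 9.52% and 15.1% of POU5F1-high cells (9.52% and 26.0%). After that thinning 156 and 195 cells met the rule, 114 and 140 of them members, so counting noise moved many single cells over the limits.

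**Figure D1:**
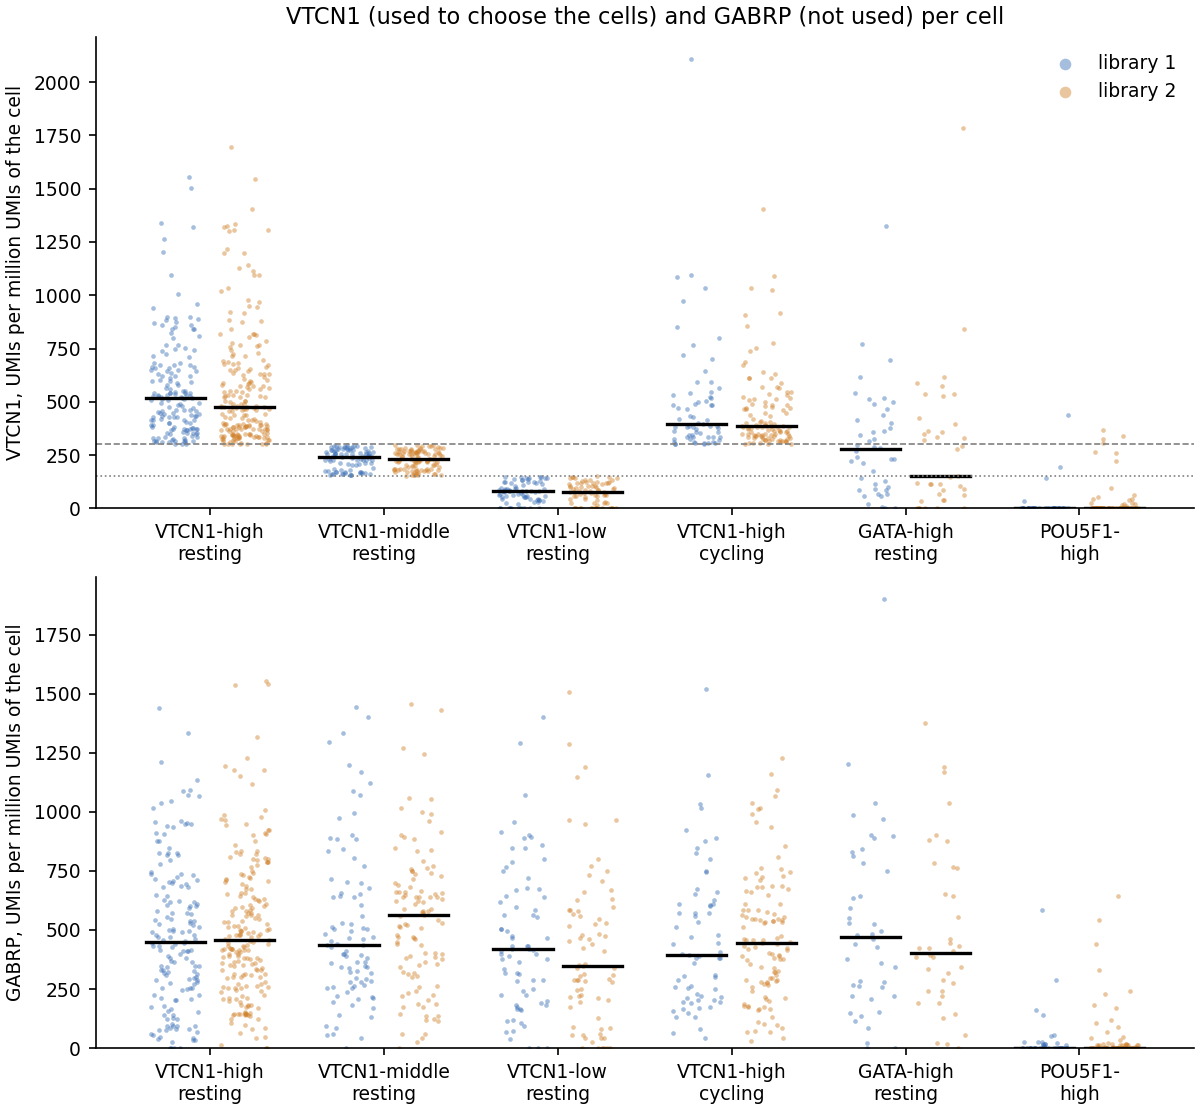
CPM of VTCN1 (top) and GABRP (bottom) in each cell of 6 groups, with 1 strip per library and a black line at the median. The dashed line marks the VTCN1 limit of 300 and the dotted line that of 150. VTCN1 separates the groups because the rule was set on it, while GABRP overlaps in all groups but the POU5F1-high cells.

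The other genes of the rule were low in members by construction. MKI67 was at 4.24 and 2.23 and TOP2A at 7.17 and 6.54 in members, against 154 and 150 and 447 and 324 in the cycling cells. POU5F1, the pluripotency factor, was at 31.5 and 33.9, and at 633 and 725 in POU5F1-high cells. GATA3 was at 154 and 148, PPARG at 92.3 and 92.8, PEG10 at 72.5 and 66.8 and GATA2 at 12.4 and 12.2 in members, while GATA-high cells held 473 and 426 of GATA3. These values chose the groups and were not tested.

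GABRP, the marker that the rule did not use, was at 511 and 514 in members. Its level was 459 and 415 in VTCN1-low, 516 and 535 in VTCN1-middle, 473 and 489 in VTCN1-high cycling and 456 and 485 in GATA-high cells. Only the POU5F1-high cells stood apart, at 33.3 and 27.7. The log2 difference between members and VTCN1-low cells was 0.25 ± 0.08 (SE, adjusted p = 0.121), and it did not pass the threshold of 0.05. GABRP did not pass against the cycling cells either (0.13, adjusted p = 0.453), nor against the GATA-high cells (0.07, adjusted p = 0.612). In thinned cells a GABRP UMI was found in 92.0% and 93.7% of members (97.5% and 99.0% unthinned) and in 14.3% and 20.5% of POU5F1-high cells (40.5% and 45.2% unthinned). GABRP thus marked nearly every member, and it marked the neighbouring groups to a similar level.

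The other amnion markers gave the same picture. Of 20 genes on the list, VTCN1 belonged to the rule and ANXA8 was too low to test (0.163 and 0.417), which left 18. Against VTCN1-low cells 1 of the 18 was higher and 0 were lower, beside 1.56% of all 15087 tested genes called higher and 2.42% called lower; the median log2 difference was 0.23 for the list and -0.01 for all genes. The gene that rose was ITGB6, an integrin subunit of epithelia, at 116 and 125 in members and 85.4 and 70.9 in VTCN1-low cells (0.65 ± 0.15, adjusted p = 0.0301). This call was lost without the library block, when cells were chosen on one random part of the UMIs and tested on the other, at a mitochondrial limit of 10% and without cells rich in S phase transcripts. ISL1, a homeobox gene needed for amnion formation in primate embryos, was at 88.4 and 75.7 against 96.7 and 74.3 (-0.04, adjusted p = 0.904).

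The transcription factors of early amnion differed little with VTCN1. TFAP2A was at 216 and 208 in members and 184 and 194 in VTCN1-low cells (0.18, adjusted p = 0.341). TFAP2B was at 188 and 173 against 122 and 145 (0.45, adjusted p = 0.0686) and was not called. HAND1 was at 362 and 405 against 346 and 325, and MEIS2 at 584 and 534 against 457 and 417 (0.37, adjusted p = 0.178). Among secreted proteins, IGFBP3 was at 785 and 766 against 628 and 520 (0.45, adjusted p = 0.115). Likewise IGFBP5 was at 198 and 209 against 155 and 134 (0.51, adjusted p = 0.0771), so that both insulin-like growth factor binding proteins were above the VTCN1-low level in each library without passing the test. The ligand BMP4 was at 20.7 and 22.7 in members, 21.2 and 16.1 in VTCN1-low cells and 39.6 and 36.1 in POU5F1-high cells.

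None of the remaining list members was called between the VTCN1 classes. The protease gene CTSV was at 2124 and 1932 in members and 2041 and 2001 in VTCN1-low cells. ANXA3 was at 505 and 574 against 480 and 535, and the BMP pseudoreceptor gene BAMBI at 185 and 220 against 205 and 202. HEY1, a NOTCH effector, was at 39.0 and 38.1 against 33.7 and 42.9, whereas WNT6 was at 45.3 and 48.4 against 37.0 and 45.2. The cadherin gene CDH10 was at 119 and 115 against 118 and 59.4. GADD45G was at 17 and 19.1 against 17.2 and 10.3. MUC16, a surface mucin, was low in both, at 4.89 and 3.20 against 0.733 and 1.91 (1.59, adjusted p = 0.167). Summed over the 19 list genes other than VTCN1, members held 6108 and 5982 CPM, VTCN1-low cells 5486 and 5210, GATA-high cells 6439 and 5936, and POU5F1-high cells 1174 and 1012. The label amnion-like therefore held for the members only against POU5F1-high cells. The amnion markers were at similar summed levels in VTCN1-low and GATA-high cells. Lists of other cell types, given below, also separated members from POU5F1-high cells.

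**Figure D2:**
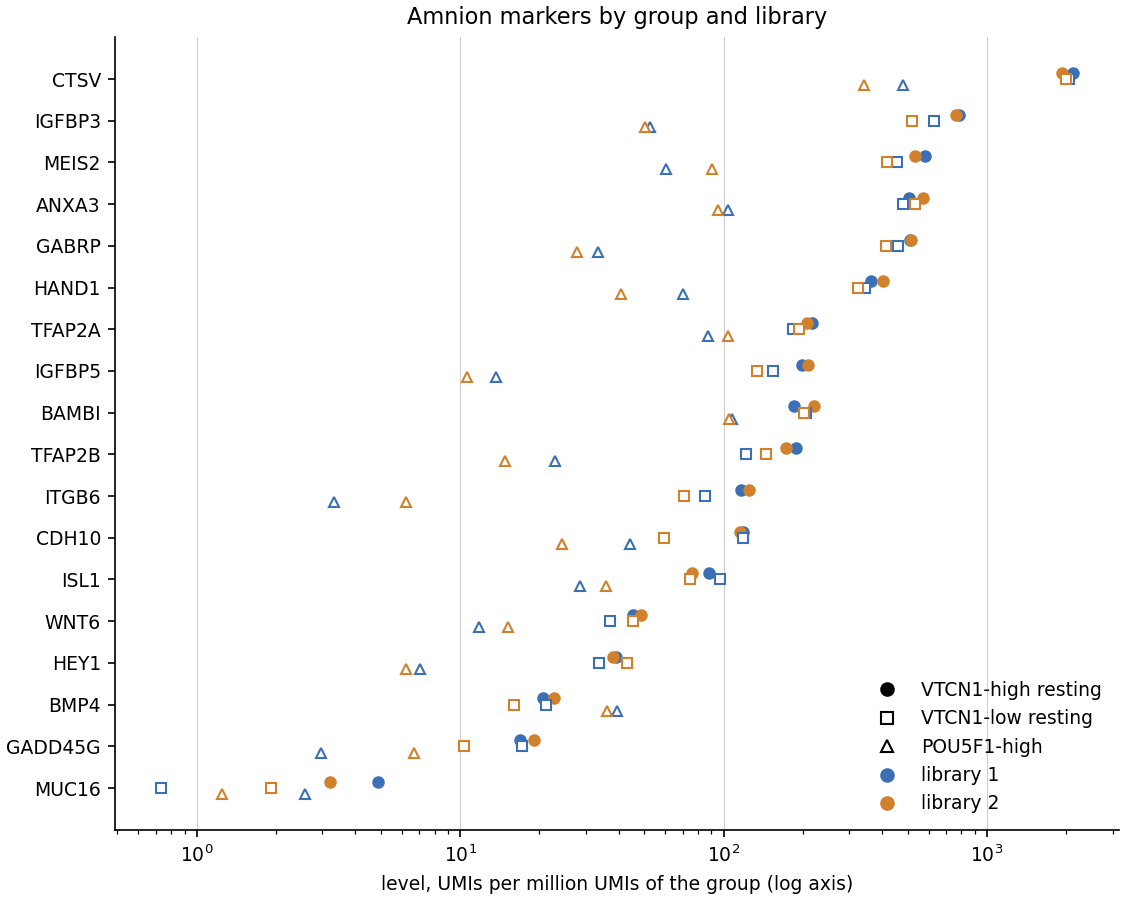
Level of 18 amnion markers in members (circles), VTCN1-low resting cells (squares) and POU5F1-high cells (triangles), in CPM on a log axis, 1 colour per library. Circles and squares lie close together for most genes, as for GABRP and CTSV, and most triangles lie lower, BMP4 being an exception.

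Markers of other cell types were checked in the same sums. Pluripotency markers other than the rule's held 817 and 839 CPM in members and 2948 and 2966 in POU5F1-high cells, and ZIC2 was at 0 in members of both libraries. Primitive streak and mesoderm markers came to 32.8 and 20.2, against 491 and 552 in POU5F1-high cells, with 2 of them at 0 in each library. Endothelial and blood markers came to 2.6 and 2.5, and endoderm and hypoblast markers to 73.2 and 78.6, 4 of those at 0. After thinning, 0 of 162 and 0 of 207 members had a UMI of the endoderm gene SOX17 or the streak gene TBXT. A count of 0 limits the share of cells with a UMI to 1.85% and 1.45% (counting error only) and not the share that expressed the gene. TBXT was found in 26.2% and 34.2% of POU5F1-high cells. Syncytiotrophoblast markers came to 9.9 and 6.3 in members and to 512 and 80.1 in GATA-high cells. Trophectoderm markers were not absent, at 1204 and 1211 in members, 919 and 912 in VTCN1-low and 1794 and 1414 in GATA-high cells.

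Mesenchyme transcripts were present throughout the members. The list held 2269 and 2300 CPM in members and 2760 and 2594 in VTCN1-low cells. LUM, a collagen-binding proteoglycan, was at 268 and 301 in members and 354 and 347 in VTCN1-low cells (adjusted p = 0.11). After thinning it had a UMI in 68.5% and 73.4% of members (79.6% and 84.5% unthinned) and in 69.3% and 73.3% of VTCN1-low cells, against 7.14% and 13.7% of POU5F1-high cells, so it was above the level of those cells and did not follow VTCN1. DCN was at 74.7 and 71.4 against 95.2 and 82.3. TAGLN, an actin-binding protein of contractile cells, was the 1 of 16 tested mesenchyme genes called, at 76.0 and 106 in members against 177 and 195 (-1.04, adjusted p = 0.0236). Of all tested genes 2.42% were called lower. The TAGLN call held in 10 of 14 settings with both libraries. KRT18 had a UMI in 92.0% and 97.1% of thinned members, so keratin and mesenchyme transcripts were both found in most members.

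Across all genes, members differed from VTCN1-low resting cells in 600 of 15087 tested genes (3.98%; edgeR quasi-likelihood test, Benjamini-Hochberg adjusted p under 0.05), 235 of them higher and 365 lower, and 140 by at least 2-fold (0.928%). The VTCN1-middle cells lay between both groups in both libraries for 198 of the 235 higher genes (84.3%) and 310 of the 365 lower genes (84.9%). These genes were called for a difference between the outer groups, which favours a middle value in between. The share over all tested genes was not computed. The 600 calls rest on both libraries: with 1 library left out of these groups, 6 or 7 genes were called, although all 600 kept their direction. Keeping direction was largely fixed in advance, because the library left in had also been used to call these genes. In the unadjusted test 2827 genes had p under 0.05.

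ADAMTS20, a secreted metalloprotease of the extracellular matrix (chr12:43352763-43552203), rose most. It was at 190 and 190 in members, 120 and 79.6 in VTCN1-middle and 40.7 and 50.2 in VTCN1-low cells, so the groups did not overlap and the middle class lay between them. The largest rises and falls were chosen by fold, call and direction in both libraries, so a lack of overlap in them largely follows from that choice. The share of all genes without overlap was not computed. The log2 difference was 2.08 ± 0.24 (adjusted p = 0.00156). An ADAMTS20 UMI was found in 38.3% and 44.4% of thinned members and in 26.7% and 26.7% of thinned VTCN1-low cells (58.0% and 56.5% against 46.7% and 41.3% unthinned). Its call held in all settings with both libraries, 14 of 14, and was lost when 1 library was left out (adjusted p up to 0.128).

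LRRC4C, a netrin-G ligand (chr11:40114199-41459652), was at 257 and 245 in members and 85.7 and 92.3 in VTCN1-low cells (1.51 ± 0.19, adjusted p = 0.00247). LINGO2, a leucine-rich repeat membrane protein, was at 133 and 113 against 58.2 and 50.9 (1.19, adjusted p = 0.00728). The protocadherin gene PCDH9 was at 70.7 and 83.6 against 37.4 and 32.9 (1.14, adjusted p = 0.0379). All 3 were higher in members of both libraries than in VTCN1-low cells of either, which largely follows from how they were chosen. KHDRBS2, an RNA-binding splicing regulator (chr6:61542670-62286225), was at 319 and 331 against 160 and 138 (1.13 ± 0.19, adjusted p = 0.00746). The secreted follistatin-like protein gene FSTL4 was at 109 and 95.4 against 54.2 and 41.0 (1.12, adjusted p = 0.0062).

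Others of the 15 largest rises were smaller. PLAAT3, a phospholipase, was at 141 and 173 against 84.3 and 75.1 (0.98, adjusted p = 0.0159), and ABCB4, a phosphatidylcholine transporter, at 156 and 147 against 82.8 and 72.8 (0.98, adjusted p = 0.00329). The Rac GTPase-activating protein gene ARHGAP24 was at 669 and 692 against 433 and 307 (0.90, adjusted p = 0.00322). SH3PXD2A, a podosome scaffold, was at 131 and 138 against 66.7 and 78.9 (0.90, adjusted p = 0.00425). ANKS1A, an adaptor of Eph receptors, was at 379 and 382 against 212 and 205 (0.88, adjusted p = 0.00719). In each of these genes the lowest member value was above the highest VTCN1-low value, which largely follows from how they were chosen. The rest of the 15 were LRRC63 (0.92), ST6GALNAC3 (1.06), HS6ST3 (0.95) and the histone gene H2AC6 (0.95). The ST6GALNAC3 call held in 8 of 14 settings with both libraries, HS6ST3 in 9, H2AC6 in 11 and LRRC63 in 12.

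The largest fall, NTS, came from very few cells. NTS encodes the peptide neurotensin (chr12:85874295-85882992) and was at 15.5 and 3.89 in members, 287 and 37.9 in VTCN1-low cells and 655 and 354 in POU5F1-high cells (-4.01 ± 0.92, adjusted p = 0.0308). In library 1, 1 VTCN1-low cell of 108740 UMIs held 724 of the 784 NTS UMIs of its group. In library 2, 1 VTCN1-low cell held 87 of 99 NTS UMIs. This fall therefore describes a few cells of the comparison group and not a shift across the VTCN1-low cells.

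Other large falls included genes of the S phase list. TYMS, the thymidylate synthase, was at 17.6 and 23.5 in members and 46.5 and 56.3 in VTCN1-low cells (-1.31, adjusted p = 0.01). MCM7, a subunit of the replicative helicase, was at 26.7 and 31.3 against 61.9 and 73.9 (-1.21, adjusted p = 0.00329), and PCNA, the polymerase clamp, at 25.4 and 33.9 against 59.3 and 72.8 (-1.14, adjusted p = 0.0062). DTL, which targets the licensing factor CDT1 for degradation, was at 33.3 and 30.3 against 75.5 and 82.3 (-1.30, adjusted p = 0.00364). In each, both member values lay below both VTCN1-low values, which largely follows from the choice of the largest falls. CENPK (-1.24), GMNN (-1.17), BRCA1 (-1.11), WDHD1 (-1.08), BRIP1 (-1.07) and CENPF (-1.07) also fell. Among the other falls, HS6ST2, a heparan sulfate sulfotransferase, was at 30.6 and 24.5 against 60.8 and 76.2 (-1.31, adjusted p = 0.0169). The nucleoside diphosphate kinase gene NME1 was at 31.3 and 35.5 against 69.2 and 78.9 (-1.14, adjusted p = 0.00296). The tubulin gene TUBA1B was at 260 and 302 against 474 and 738 (-1.08, adjusted p = 0.00156). HS6ST2, NME1 and TUBA1B each lost the call when cells of 10 or more S phase UMIs were left out, where fewer cells entered.

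As a list, 19 of 24 S phase genes fell and 0 rose, with a median log2 difference of -0.94, and all 24 were below 0. Of all tested genes 2.42% fell and 1.56% rose. Of 24 genes of G2 and M phase 5 fell, with a median of -0.72, among them CDK1 (5.54 and 5.70 against 19 and 16.9; -1.65), the kinase that drives mitotic entry. The limit on MKI67 and TOP2A was the same in both groups. S phase genes were not part of it. After thinning, the summed S phase UMIs per cell had a median of 4 and 4 in members, 5 and 5 in VTCN1-middle, 8 and 8 in VTCN1-low, 11 and 10 in VTCN1-high cycling and 18.5 and 17 in POU5F1-high cells. At least 10 such UMIs were found in 26 of 162 members (16.0%, exact 95% interval 10.8 to 22.6) and 28 of 207 (13.5%, 9.18 to 19). In VTCN1-low cells they were found in 30 of 75 (40.0%, 28.9 to 52.0) and 34 of 75 (45.3%, 33.8 to 57.3). Of the G2 and M phase genes, 0 of 162 and 2 of 207 members had 10 or more UMIs, which largely follows from the MKI67 and TOP2A limit. The word resting did not hold for every member in S phase genes.

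**Figure D3:**
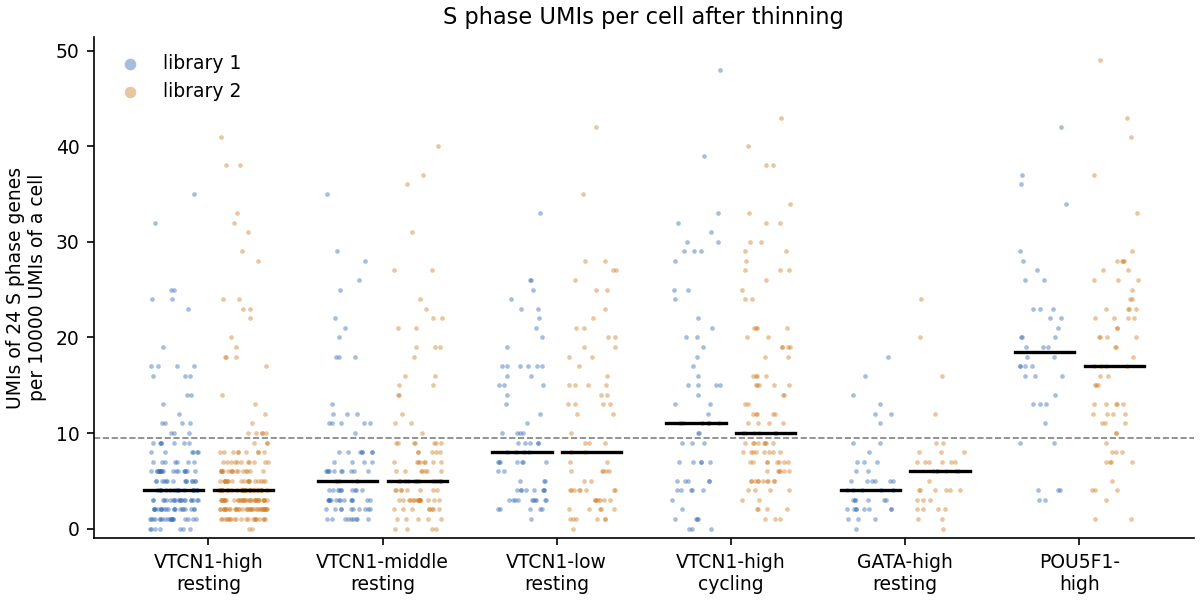
Summed UMIs of 24 S phase genes per 10000 UMIs in each cell, by group and library, with a line at the median and a dashed line just under 10 UMIs. Members have medians of 4 in both libraries and VTCN1-low resting cells medians of 8, with POU5F1-high cells highest.

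Most calls between members and VTCN1-low cells were not made without the cells rich in S phase transcripts. With cells of 10 or more S phase UMIs left out, 136 and 179 members and 45 and 41 VTCN1-low cells remained, 4 genes were called and 1223 had an unadjusted p under 0.05. Of the 586 main calls still tested, 568 kept their direction, which largely follows because the remaining cells had also entered the main calls. ADAMTS20 was still higher (2.33, adjusted p = 0.00695), and the sodium pump subunit gene ATP1B1 was still lower (-0.81, adjusted p = 0.0436). LRRC4C (1.31, adjusted p = 0.0546) and KHDRBS2 (1.11, adjusted p = 0.089) stayed above 1 but lost the call. No glycolysis or amnion gene was called in these cells, where the median was 0.18 for 17 amnion markers. The cells were left out by their S phase UMIs, so the lack of calls among S phase genes (median -0.32 over 22) follows from that choice. POU5F1-high cells fell to 7 and 15 in this setting, under the minimum of 20, so that group left the fit. How much of the change comes from having fewer cells or from the changed fit was not tested.

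**Figure D4:**
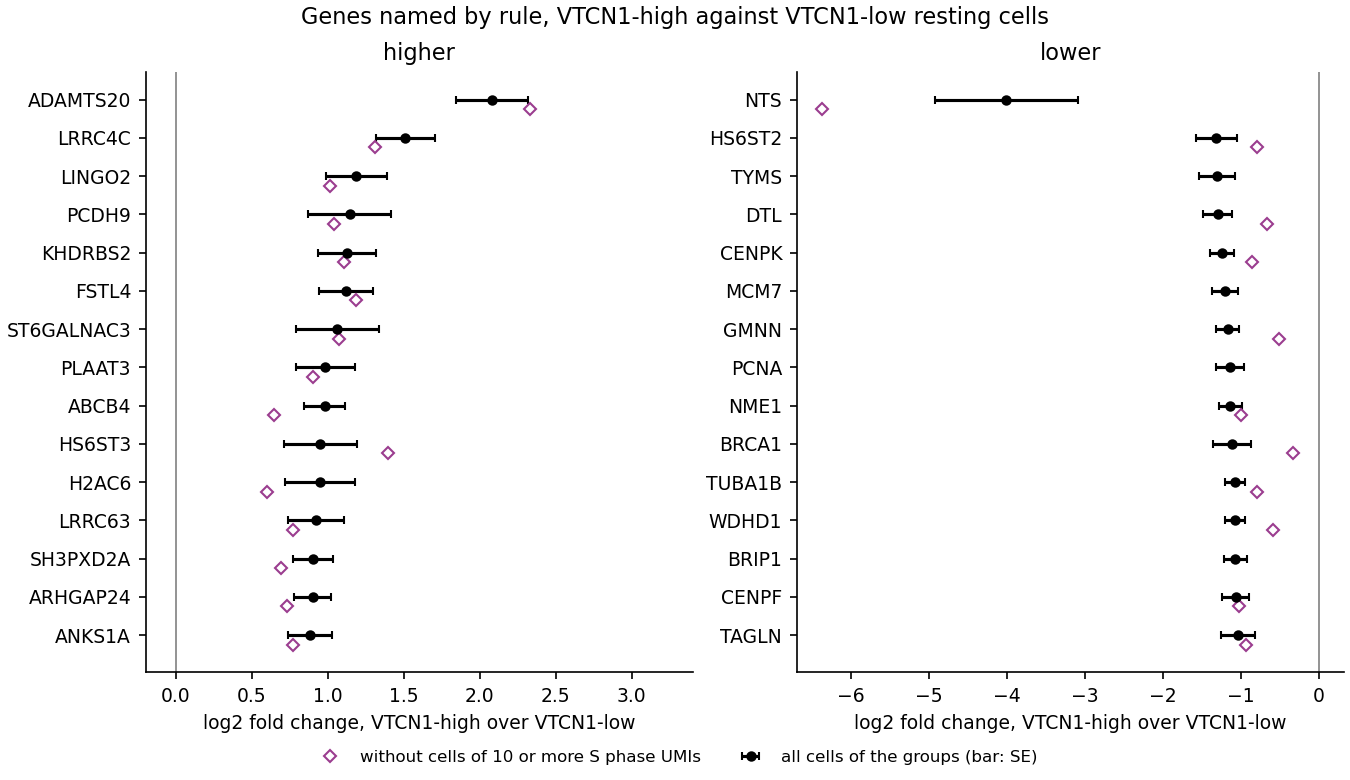
Log2 difference between members and VTCN1-low resting cells for the 15 largest rises (left) and 15 largest falls (right); bars are SE. Diamonds give the value without cells of 10 or more S phase UMIs and are left out for genes of the S phase list; ADAMTS20 stays above 2, while falls such as DTL and BRCA1 move toward 0.

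Gene length moved with the direction of change. By the RefSeq span on GRCh38, known for 92.7% of tested genes, the median span was 135 kb for higher genes, 19 kb for lower genes and 34.6 kb for all. Of genes spanning at least 100 kb 4.81% were higher and 1.55% lower, whereas of those under 20 kb 0.352% were higher and 3.86% lower. The nuclear RNA MALAT1 was at 21151 and 18050 in members and 17662 and 13947 in VTCN1-low cells, and NEAT1 at 899 and 812 against 685 and 523. Genes of at least 100 kb took 30.3% and 28.9% of UMIs in members and 26.7% and 25.7% in VTCN1-low cells, and ribosomal protein genes 13.8% and 14.7% against 15.2% and 16.1%. Members therefore held more nuclear and long-gene transcripts in both libraries. The part of this in the calls was not tested.

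**Figure D5:**
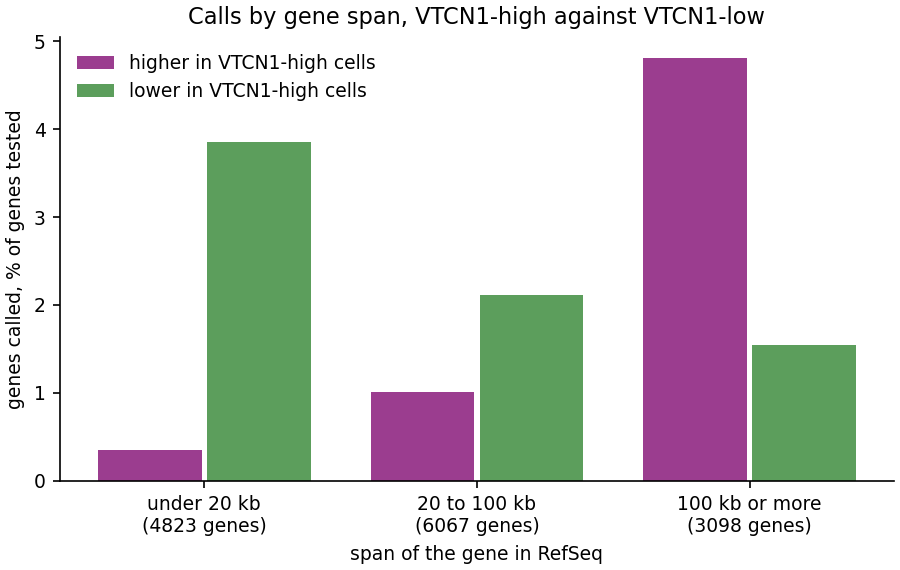
Percent of tested genes called higher or lower in members against VTCN1-low resting cells, by RefSeq gene span (under 20 kb, 20 to 100 kb, at least 100 kb). Higher calls go from 0.352% to 4.81% and lower calls from 3.86% to 1.55% with increasing span.

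Epithelial gene groups moved in parts. Of 14 keratin and desmosome genes, the simple epithelium keratins KRT18 (1120 and 1362 against 1874 and 2058; -0.65, adjusted p = 0.00654) and KRT8 (912 and 1062 against 1343 and 1415; -0.47, adjusted p = 0.00885) fell. The desmosome gene PKP2 rose (349 and 338 against 262 and 245; 0.45, adjusted p = 0.0246). Of 20 junction genes 2 rose and 0 fell. They were GRHL2, a transcription factor of epithelial junction genes (705 and 783 against 527 and 433; 0.65, adjusted p = 0.00375), and the tight junction scaffold gene TJP1 (393 and 383 against 321 and 281; 0.38, adjusted p = 0.0341). Of 27 integrin and basement membrane genes, ITGB6 and the laminin chain gene LAMA3 rose (8.80 and 8.48 against 2.56 and 2.30; 1.83, adjusted p = 0.0225) and the collagen gene COL4A6 fell (13.4 and 10.3 against 20.5 and 32.2; -1.14). The COL4A6 call held in 5 of 14 settings with both libraries, and the TJP1 and PKP2 calls each in 10. The shares of all genes called were 1.56% higher and 2.42% lower. None of these list genes was called without the S phase-rich cells, where fewer cells entered and the log2 differences were 0.59 for GRHL2 and -0.40 for KRT18.

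Calls among receptor and transport genes are to be read against 1.56% of all genes higher and 2.42% lower. Among 7 tested GABA receptor subunits 1 was called higher and 1 lower, with a median of -0.14. GABRG3 rose (134 and 129 against 81.3 and 65.1; 0.87, adjusted p = 0.0203). GABRP, in the same receptor family, was not called, as given above. Of 13 ion and water transport genes both called genes were sodium pump beta subunits: ATP1B1 (chr1:169106690-169132719) fell from 203 and 173 to 108 and 130 (-0.66, adjusted p = 0.00993), and ATP1B3 from 138 and 152 to 107 and 110 (-0.41, adjusted p = 0.0354).

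Signalling target lists held few calls, to be read against 1.56% of all genes higher and 2.42% lower. Of 17 BMP response genes 1 fell, ID3, an inhibitor of helix-loop-helix factors (40.6 and 68.4 against 99.3 and 106; -0.91, adjusted p = 0.00885). Of 14 YAP and TEAD targets 2 rose, the feedback kinase gene LATS2 (86.1 and 92.9 against 68.9 and 55.5; 0.54) and the phosphatase gene PTPN14 (364 and 354 against 295 and 281; 0.33), and the list's median was 0.35. The 13 NOTCH, 16 p53 and 17 IGF axis genes gave 0 calls, and of 15 WNT genes NKD1 fell (1.14 and 0.417 against 8.06 and 2.68). Of 18 immediate early and heat shock genes KLF6 rose (145 and 140 against 97.1 and 89.2; 0.63, adjusted p = 0.00447). Of 14 trophectoderm markers 2 rose, the endocytic receptor gene LRP2 (507 and 521 against 348 and 314; 0.65, adjusted p = 0.00273) and the nuclear receptor gene NR2F2 (160 and 141 against 109 and 109; 0.48, adjusted p = 0.0372). The 7 syncytiotrophoblast and 8 extravillous trophoblast markers tested gave 0 calls. In settings with both libraries, the NR2F2 call held in 7 of 14 and the LATS2 call in 8 of 14. KLF6 kept its call in 11, ID3 in 12 and LRP2 in 13.

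Metabolic lists leaned to lower values in members. Of all tested genes 1.56% were called higher and 2.42% lower. Genes spanning under 20 kb also leaned lower as a whole (median -0.11, 0.352% higher and 3.86% lower). The part of gene span in these lists was not tested. Of 23 glycolysis and hypoxia genes 6 fell and 1 rose, with a median of -0.16. LDHA, which makes lactate, was at 46.3 and 54.5 against 79.9 and 99.2 (-0.81, adjusted p = 0.007), and GAPDH at 1036 and 1014 against 1287 and 1348 (-0.35). The hexokinase gene HK2 went the other way, at 27.4 and 23.8 against 15.8 and 13.8 (0.81, adjusted p = 0.0215). Its call held in 9 of 14 settings with both libraries. All 20 nuclear oxidative phosphorylation genes were below 0, with a median of -0.23, but 2 passed, ATP5MC1 (31.3 and 36.4 against 49.1 and 67.4; -0.76) and COX6C (-0.33). The COX6C call held in 7 of 14 settings with both libraries and the ATP5MC1 call in 13. None of 22 cholesterol synthesis genes passed the edgeR test. Of 15 CDK inhibitor and G1 genes the kinase gene CDK6 rose (378 and 377 against 292 and 272; 0.43, adjusted p = 0.0259), while CCNE2 (0.815 and 2.09 against 10.3 and 9.57; -2.70, adjusted p = 0.0062), CCND1 and CDK4 (-0.40, adjusted p = 0.0494) fell.

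Across all cells under the shared limits, POU5F1-high cells included, KIF26B (mean Pearson r 0.42), PDE3A (0.40) and TMTC2 (0.40) correlated most with VTCN1. The next were SLC38A1 (0.38), SESN3 (0.38), CHN2 (0.38), PDZRN3 (0.37), MEIS1 (0.36), FUT8 (0.36) and SLC22A23 (0.36). These r are means over 2 libraries of 768 and 979 cells thinned to 10000 UMIs, and cells of a library share its handling. KIF26B, a kinesin family member, was at 1998 and 1733 in members and 1361 and 1227 in VTCN1-low cells (0.54). PDE3A, a cyclic nucleotide phosphodiesterase, was at 2001 and 1669 against 1108 and 1131 (0.72, adjusted p = 0.00156). Both were higher in members of each library than in VTCN1-low cells of either, which largely follows from the choice by likeness to VTCN1. GABRP ranked 95 of 7398 genes by this measure (0.23) and ISL1 ranked 1564 (0.05). The nuclear RNA MALAT1 ranked 67 (0.26).

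Against VTCN1-high cycling cells, members differed in 800 genes (5.3%), of which 242 were higher (1.6%) and 558 lower (3.7%). All 24 G2 and M phase genes were lower (median -3.30), as were 23 of 24 S phase genes (median -1.17). This is the side that the MKI67 and TOP2A limit chose, and it is given as a description. NDC80, HMMR, KIF18B, DLGAP5, UBE2C, NUSAP1, DEPDC1 and CDK1 were the 8 largest falls among genes of at least 50 CPM, as for the kinetochore gene NDC80 (1.79 and 3.20 against 66.3 and 72.6). Apart from the cycle, KHDRBS2 (319 and 331 against 67.4 and 137; 1.70, adjusted p = 8.48e-05), LINGO2 (133 and 113 against 37.0 and 44.0; 1.65, adjusted p = 0.000153), LRRC4C (257 and 245 against 81.9 and 111; 1.41, adjusted p = 0.000325) and PCDH9 (1.28, adjusted p = 0.0116) were again higher in members. Both comparisons use the same member sums. RELN, a secreted guidance protein, was at 83.5 and 72.7 against 16.3 and 30.7 (1.73, adjusted p = 0.0114). The acyl-CoA synthetase gene ACSM3 was at 71.2 and 79.4 against 17.4 and 29.6 (1.66, adjusted p = 0.0103). The metalloprotease gene ADAMTS1 was at 66.8 and 64.0 against 22.1 and 29.4 (1.32, adjusted p = 0.00267). RELN and ACSM3 each kept the call in 12 of 15 settings with both libraries, PCDH9 in 13, and LRRC4C and ADAMTS1 in 14. KHDRBS2 and LINGO2 kept it in all 15.

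Some amnion and structural genes separated the members from their cycling counterparts. Of 18 amnion markers 2 were higher (beside 1.6% of all genes), IGFBP5 (0.56, adjusted p = 0.0417) and CTSV (0.47, adjusted p = 0.0197), and 0 were lower. GABRG3 was at 134 and 129 against 47.5 and 54.5 (1.38, adjusted p = 0.000299). COL6A3 (0.86), VIM (0.44), KRT19 (0.45) and DSC2 (0.42) also rose, as did LGR5, an R-spondin receptor (36.8 and 31.3 against 4.71 and 10.4; 2.17), and the imprinted transcript H19 (0.45). LDHA (-0.61), PKM (-0.37) and FDPS (-0.59) fell. With 1 library left out of these groups, 260 to 298 genes were called, 16 to 40 of them higher, so the higher calls depend more on having both libraries.

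Against GATA-high resting cells the members differed in 2583 genes (17.1%), 1003 higher (6.65%) and 1580 lower (10.5%). In library 1, 1 GATA-high cell of 193688 UMIs gave 8.36% of its group's UMIs. It held 449 of 452 UMIs of S100P, 839 of 901 of the placental growth factor gene PGF and 336 of 382 of CGA, the hormone alpha subunit of syncytiotrophoblast. It held 119 of 119 UMIs of the fusogen gene ERVW-1. With cells of at least 200 CPM over the syncytiotrophoblast list left out (3 and 4 GATA-high cells, 1 and 0 members), 1371 genes were called, 542 higher and 829 lower. PHLDA2 (-3.08, adjusted p = 0.0183) and SP6 (-2.73, adjusted p = 0.0105) were still lower, PGF (-2.48, adjusted p = 0.152) and TIMP3 (-0.63, adjusted p = 0.69) were no longer called, and S100P, HOPX and TNFRSF1B fell under the count filter. Of the syncytiotrophoblast list 7 of 7 were lower with all cells and 0 of 2 without those cells. The cells were left out by this same list, so the loss of its calls largely follows from that choice.

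All 8 of the largest rises against GATA-high cells kept their call without those cells. FSTL4 was at 109 and 95.4 against 26.3 and 18.5 (2.12, adjusted p = 5.79e-05), and MECOM, a zinc finger transcription factor, at 297 and 259 against 97.6 and 24.0 (2.12, adjusted p = 0.000941). The synaptic adhesion gene IL1RAPL2 was at 91.1 and 42.3 against 17.3 and 10.5 (2.15, adjusted p = 0.000979). PCDH17, a protocadherin, was at 137 and 166 against 27.6 and 59.1 (1.81, adjusted p = 0.000107). KCTD16 (2.22), CFAP20DC-DT (2.01), the kinase gene GRK5 (1.80) and LIX1 (1.66) were the others. In the 4 genes given by library, the lower member value exceeded the higher GATA-high value, which largely follows from how they were chosen.

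Amnion markers split in this comparison, with 4 of 18 higher and 3 lower in members, beside 6.65% of all genes higher and 10.5% lower. TFAP2B was at 188 and 173 against 91.5 and 85.0 (0.98, adjusted p = 0.000512) and MEIS2 at 584 and 534 against 342 and 251 (0.86, adjusted p = 0.00204), and IGFBP5 (0.71) and BAMBI (0.42) were also higher. GADD45G was at 17 and 19.1 against 216 and 45.6 (-2.82), BMP4 fell by 1.00 (adjusted p = 0.00321) and CTSV fell by 0.42. Without the syncytiotrophoblast-rich cells 3 were higher and 3 lower. Of 14 keratin and desmosome genes 8 were lower (5 without those cells), led by KRT7 (-1.69). Of 20 oxidative phosphorylation genes 14 were lower (10 without those cells), and of 23 glycolysis genes 12 (9 without those cells). Without those cells 542 of all 15072 tested genes were higher and 829 lower. DCN (74.7 and 71.4 against 24.2 and 25.3; 1.51, adjusted p = 0.000565) and VIM (1497 and 1453 against 888 and 695; 0.85) were 2 of 4 mesenchyme markers that were higher in members, with COL3A1 (0.97) and COL1A1 (0.78). Another 2 of the 16, POSTN (-2.16, adjusted p = 0.0276) and PDGFRB (-1.52, adjusted p = 0.0172), were lower.

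Few genes differed by 2-fold between the members of both libraries. Of 4027 genes with at least 50 CPM in the higher library, 0 were at least 2-fold higher in library 2 and 5 in library 1. These were TMEFF2 (65.5 and 14.5), ALK (65.4 and 26.0), PLCG2 (53.6 and 23.2), IL1RAPL2 (91.1 and 42.3) and ENSG00000289474 (618 and 298). In PLCG2, 1 member held 139 of 329 UMIs in library 1. ENSG00000289474 differed by library in VTCN1-low cells too (632 and 289). With 1 sum per library these gaps have no test.

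Among single members, the highest ratios of variance to mean in thinned counts belonged to MALAT1 (53.5 and 46.6) and mitochondrial transcripts such as MT-CO1 (23.1 and 21.3) and MT-CO2 (22.4 and 18.5), against a median gene of 1.22 and 1.19. GPC5, a glypican (22.1 and 15.7), and XACT, a long noncoding RNA of the X chromosome (15.5 and 35.5), were the other genes among the 15 highest in both libraries. The amnion marker CTSV had 12.4 and 13.7 (ranks 31 and 13 of 6906 genes). This ratio tends to grow with the mean count of a gene. Among members alone, Pearson's r of GABRP with VTCN1 was -0.14 and -0.03.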

How the data were processed

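Both libraries were made with the 10x Chromium 3' chemistry and processed with Cell Ranger 9.0.0 on GRCh38, per the submitters' processing notes. The authors deposited raw UMI counts per gene and barcode (38665475 and 45208758 UMIs). Every barcode in the tables has at least 200 genes and every gene at least 2 barcodes. No normalization or cell annotation was used. The members and gene lists were chosen with earlier results of these data known.

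CPM is the count of a gene per 1000000 UMIs. For each library, raw counts were summed over the cells of each of 6 groups. These sums were tested with edgeR 4.0.16 (R 4.3.3, glmQLFit and glmQLFTest) with TMM scaling, filterByExpr, the library as a block and Benjamini-Hochberg adjustment over 15087 genes, threshold 0.05. The block is natural because each library holds every group, and its number names the same library in each. Fold changes come with edgeR's prior count. Genes of the rule and mitochondrial genes were given as values only. Named genes were the 15 largest rises and falls against VTCN1-low cells (8 and 8 otherwise) with at least 50 CPM in the higher group, up to 4 genes per list, and all amnion markers. Cells were thinned to 10000 UMIs for shares and correlations, and shares of a single library have exact Clopper-Pearson intervals, which cover counting error only. Scrublet (scanpy 1.11.5) marked 4 and 3 barcodes and no member, too few to have worked as a doublet caller, so doublets were not removed. The libraries share 1 barcode, which is a member in neither. The fit was tested on simulated data. Alternatives were DESeq2 1.42.0, other filters, groups and depths, and leaving out each library. Sequences are not used here. Some genes are not reported here.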

Additional observations from a re-analysis of the deposited data

Results flagged for a closer look

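VTCN1 was also found in the barcodes that the limits left out. In library 1 it was at 205.0 CPM in the 1190 barcodes with too few genes or UMIs, at 175.4 in the 10 with under 1% mitochondrial UMIs and at 179.1 in the 20 with over 20%. The limits that a count of 0 allows were 1.92, 9.23 and 10.3 CPM. In library 2 the same classes of 1585, 15 and 22 barcodes held 190.9, 170.0 and 178.3 CPM, with limits of 1.03, 4.22 and 9.55. Within the limits the level was 229 and 236. These barcodes entered no comparison, and there were no control samples.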

How the results depend on the processing

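The genes called against VTCN1-low, VTCN1-high cycling and GATA-high cells numbered 600, 800 and 2583. The DESeq2 Wald test called 368, 475 and 1445, thinning every cell 216, 495 and 660 (55.6% of the first higher, against 39.2%), and fits with only the compared groups 1418, 1885 and 1150. Without a filter on low counts 1211 and 1327 genes were called in the first pair. A VTCN1 limit of 500 gave 1106 and 417. Without the library block (no replicate block) the counts were 354, 682 and 2177, all 354 among the 600. Choosing cells on one part of the UMIs and testing on the other gave 1308 against GATA-high cells and 441 against VTCN1-low cells, 293 of them among the 600. Leaving out 1 library gave 6 to 7, 260 to 298 and 1162 to 1345. Another 3 alternatives were chosen after seeing the data. Leaving out S phase-rich cells gave 4, 318 and 1406, leaving out syncytiotrophoblast-rich cells gave 1371 against GATA-high cells, and leaving out cells with 500 CPM or more of DCN and LUM gave 521, 563 and 2440. The planned limit of 100 left under 20 cells in a group except against cycling cells (335 calls). The causes were not tested. The member share was 10.4% at a VTCN1 limit of 500, 21.2% without scrublet-marked barcodes, 20.8% at a mitochondrial limit of 10%, 21.0% from 20000 UMIs and 20.1% after thinning. No named gene that was called, with or without the alternative, changed sign. Uncalled ones did, such as ISL1 against VTCN1-low cells (-0.18 to 0.16). Depth limits genes of few UMIs, and 2 libraries limit every test.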
